A study of Mus musculus with 6 samples.

Results

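The cytosolic ribosomal proteins are the protein parts of the ribosomes that translate messenger RNA in the cytoplasm. Their genes were taken by name, as every mouse symbol of the Rpl, Rps and Rplp series that stands alone in the platform annotation of a probe set. A probe set is the group of short array probes that together give 1 value for a transcript. The rule found 69 genes read by 131 probe sets, out of 17097 genes and 45037 probe sets on the array, and used no measured value. Another 15 probe sets that name a ribosomal protein gene together with a second gene were left out, and Rpl5, which is read only by such probe sets, is therefore not analysed here. Neither is Rps27a, for which the rule found no probe set.

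The RNA came from whole lungs of male BALB/c mice aged 10 weeks. The hydrogen group comprised 3 mice kept for 3 weeks in air with 2% hydrogen gas, and the control group comprised 3 mice kept in normal air. Each mouse gave 1 array, and no allele or other agent is named for either group. The p-values set the group difference against the spread between arrays within the groups. The labels do not say whether mice shared a cage, so it is not known whether the arrays are independent replicates of the treatment. Whole lung is a mixture of cells, and fewer cells of a type cannot be told apart from less RNA per cell. The deposited values are log2 signals, and a difference of 1 means a doubling.

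The arrays carried the marks of lung. The surfactant gene Sftpc averaged 13.16, the club cell gene Scgb1a1 13.22 and the alveolar type I gene Ager 12.60, while the macrophage gene Marco was at 4.25, below the median probe set of 4.8. The 6 arrays differed in the shape of their value distribution. Array medians were 4.84 to 4.85 in the hydrogen group and 4.75 to 4.76 in the control group, and the SD over all probe sets was 1.80 to 1.81 in the hydrogen group and 1.90 to 1.92 in the control group. In limma, with Benjamini-Hochberg adjustment over all probe sets, 47.1% of the array passed an adjusted p of 0.05, with 24.3% higher and 22.8% lower in hydrogen lungs. The groups did not overlap for 57.3% of all probe sets. An exact permutation test of 3 arrays against 3 cannot give a two-sided p under 0.1, so the tests below are limma's.

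Ribosomal proteins are made in nearly equal amounts, assembled with ribosomal RNA in the nucleolus and exported as a small and a large subunit. Their messenger RNAs are among the most abundant in most cells. Many carry a terminal oligopyrimidine motif, a cytosine at the transcription start followed by an unbroken run of pyrimidines, through which mTOR signalling and the RNA-binding protein Larp1 set how well they are translated and preserved. Several of these transcripts, Rplp0, Rpl13a and Rps18 among them, are common loading references in PCR.

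RefSeq start regions were matched for 55 of the 69 genes, with 66 annotated starts. The following 5 windows, on GRCm38.p6, are shown because their annotated start base begins such a motif. They belong to Rps6, the brightest gene with a motif at its start, to the stalk protein Rplp2 and to 3 genes whose probe sets are described further on. The first 10 bases lie before the start, and the capitals mark the pyrimidine run that begins at the start base.
Rps6, chr4:86857348-86857377, minus strand: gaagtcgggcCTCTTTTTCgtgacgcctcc
Rplp2, chr7:141447641-141447670, plus strand: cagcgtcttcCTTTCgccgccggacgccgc
Rps18, chr17:33955646-33955675, minus strand: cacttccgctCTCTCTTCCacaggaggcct
Rps21, chr2:180257369-180257398, plus strand: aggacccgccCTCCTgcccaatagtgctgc
Rps10, chr17:27635225-27635254, minus strand: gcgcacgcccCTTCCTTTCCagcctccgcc

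A cytosine at the annotated start followed by at least 4 pyrimidines stood at 11 of the 66 starts, which is 16.7%, and at 2.51% of the 32851 mouse starts in the same RefSeq table. When the run could begin within 10 bases on either side of the annotated base, the shares were 54.5% of the ribosomal protein starts and 30.7% of all starts. The motif CGGAAG, searched on both strands of the 300 bases around each start, was present in 62.1% of the ribosomal protein windows and 16.9% of all windows. A match is a match of letters and was not set against any binding data. Over the brightest probe set of each gene, the median difference was 0.04 for the 34 genes with a run near the start, 0.01 for the 21 genes without one and 0.02 for the 14 genes with no window. Of the same 3 sets, 4, 2 and 1 genes were higher and 1, 2 and 0 were lower in hydrogen lungs. Among all genes read by their brightest probe set, 25.5% were higher and 25.9% were lower. No difference between the sets was tested.

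Most ribosomal protein transcripts were level between hydrogen and control lungs. The median difference over the 131 probe sets was 0.03 on the log2 scale, hydrogen minus control, and the median size of a difference was 0.08, against 0.18 over all probe sets. Of the 131 probe sets, 21 were higher and 10 were lower in hydrogen lungs, together 23.7%, against the 47.1% of the whole array. For 81 probe sets, or 61.8%, the whole 95% interval of the difference lay within 0.25 of 0, a change of at most 1.19-fold, against 28.3% of all probe sets. The remaining 19 probe sets passed neither test. The groups did not overlap for 57 ribosomal protein probe sets, with hydrogen above control in 36 and below it in 21. That is 43.5%, against 57.3% of the array.

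The direction of this small median rests on how the arrays are scaled. Centred on the array medians, the ribosomal protein probe sets had a median difference of −0.06 with 8 higher and 29 lower. Quantile normalized again they gave 24 higher and 6 lower, and under cyclic loess 26 higher and 7 lower. The share called stayed under the share of the whole array in each of these, at 28.2% against 46.5%, 22.9% against 35.5% and 25.2% against 35.3%. Without hydrogen replicate 2, 11 were higher and 6 were lower, or 13%, and the whole array fell to 35.4% called. Leaving out any other array also lowered both shares, with the array at 37.9% to 43.8% and the ribosomal protein probe sets at 16% to 20.6%.

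**Figure D1:**
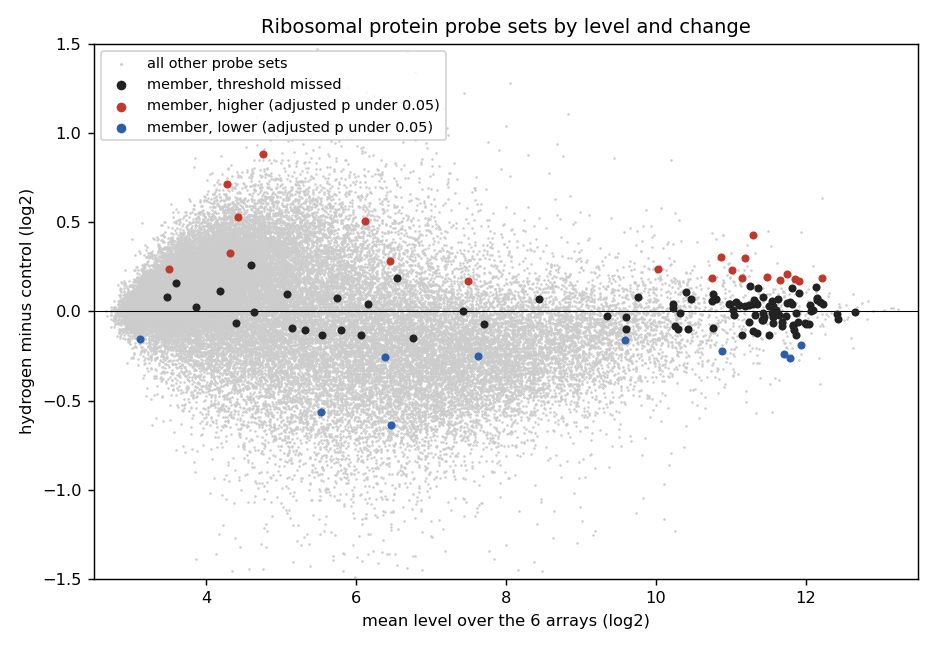
Mean log2 signal over the 6 arrays (horizontal axis) against the hydrogen minus control difference in log2 (vertical axis) for all probe sets in grey and the 131 ribosomal protein probe sets in red (higher), blue (lower) and black (threshold missed). Differences beyond 1.5 are outside the axis. Most ribosomal protein probe sets sit at the bright end near a difference of 0, and the wider spread is among their dim probe sets.

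Ribosomal protein genes filled the bright end of the arrays. They supplied 27 of the 100 brightest probe sets and 84 of the 500 brightest, and 99 of their 131 probe sets, from 64 genes, lay in the top decile of mean signal. In that decile 13 ribosomal protein probe sets were higher and 5 were lower, or 18.2%, while 46.2% of all top-decile probe sets passed, 5.28% higher and 40.9% lower. For 71 of the 99 the interval lay within 0.25 of 0, or 71.7%, against 32.3% of the decile. The median difference was 0.03 for these 99 and −0.14 for the 4405 other top-decile probe sets. Centring on the array medians left 3 of the 99 higher and 21 lower, and leaving out hydrogen replicate 2 left 6 higher and 2 lower. Without control replicate 2 the counts were 8 higher and 3 lower. They were 10 and 3 without control replicate 1, and 9 and 3 without hydrogen replicate 1. Over the whole array 46.5% passed after centring and 35.4% to 38.5% in these fits without 1 array. The share of the whole top decile in these settings is not given here.

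The same held mouse by mouse. Relative to the control mean, the median top-decile ribosomal protein probe set stood at 0.003, 0 and 0.033 in the 3 hydrogen lungs, and at 0.013, 0 and −0.013 in the 3 control lungs. The median of the other top-decile probe sets stood at −0.130, −0.147 and −0.133 in the hydrogen lungs, and at 0.010, −0.007 and −0.003 in the control lungs. All 3 hydrogen lungs were thus below every control lung for the other bright genes while for the ribosomal protein genes 2 of the 3 hydrogen lungs lay within the control range.

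Level at the bright end was shared with other genes of equal signal. Above a mean of 11, a level chosen after the values were seen, 10 of 75 ribosomal protein probe sets were higher and 3 were lower, or 17.3%, and 60 of 230 other probe sets were called, or 26.1%. The other genes' median difference was −0.19 between the decile's lower edge and 9, −0.12 from 9 to 10, −0.06 from 10 to 11, −0.02 from 11 to 12 and 0 above 12. The ribosomal protein medians were 0.04 from 10 to 11, 0.01 from 11 to 12 and 0.02 above 12. The 2 sets of medians drew together as the signal grew, and the highest value on any array was 13.25. Whether signals near that top are compressed was not tested.

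**Figure D2:**
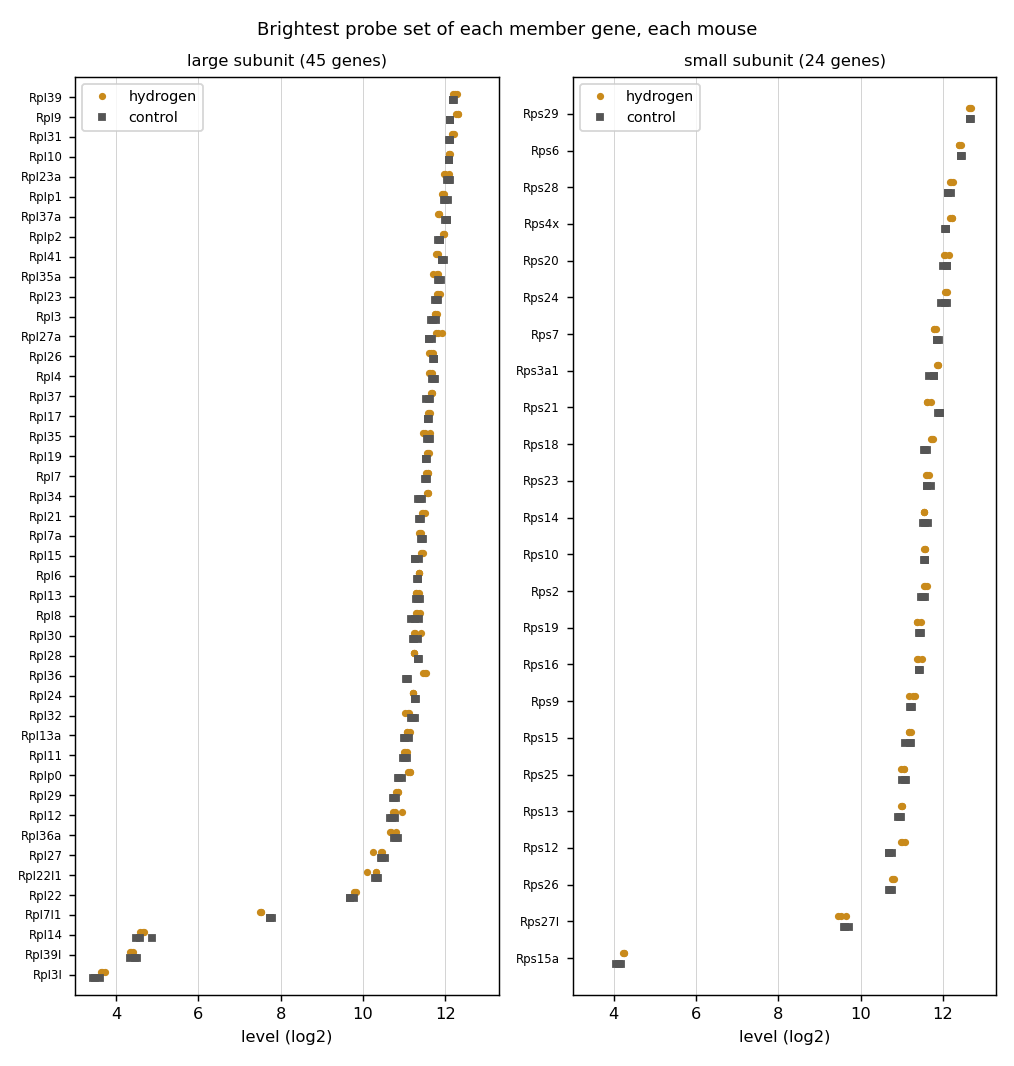
Log2 signal (horizontal axis) of the brightest probe set of each of the 69 genes, with the 45 large-subunit genes on the left and the 24 small-subunit genes on the right; circles are the 3 hydrogen mice and squares the 3 control mice. Rps29 leads at a mean of 12.66, 5 genes lie below the top decile, and Rpl36, Rplp0 and Rps12 stand out with hydrogen above control.

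Among the brightest genes, Rps29, a small-subunit protein, ranked 10 among all probe sets of the array. Its signal was 12.63, 12.65 and 12.69 in hydrogen lungs and 12.68, 12.65 and 12.65 in control lungs. Rps6, the small-subunit protein phosphorylated by the S6 kinases downstream of mTOR, had 12.40, 12.38 and 12.44 in hydrogen lungs and 12.46, 12.44 and 12.45 in control lungs. The groups overlapped for both genes, and both intervals lay within the bound, with differences of −0.003 (SE 0.051) for Rps29 and −0.04 (SE 0.051) for Rps6. Rpl39, Rps28, Rpl31, Rpl10, Rps20 and Rps24 were equally level in their brightest probe sets, with differences of 0.00 to 0.06, all within the bound. Rpl10 and Rps28 each had another top-decile probe set that was called higher without overlap. These were Rpl10 1415942_PM_at, by 0.18 (limma adjusted p = 0.0331), and Rps28 1423763_PM_x_at, by 0.17 (limma adjusted p = 0.0261). Both calls were lost after centring on the array medians and when control replicate 2 or 3 or hydrogen replicate 2 was left out.

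Rpl9 and Rps4x were the 2 of the 10 brightest genes whose intervals left the bound. Rpl9, a large-subunit protein, had 12.32, 12.32 and 12.26 in hydrogen lungs and 12.11, 12.12 and 12.11 in control lungs. All hydrogen values were above all control values, and the difference of 0.19 (SE 0.051) had a limma adjusted p of 0.0176, which reached 0.0617 without hydrogen replicate 1 or 2 and 0.151 after centring on the array medians. Rps4x, the X-linked small-subunit protein, had 12.22, 12.17 and 12.22 in hydrogen lungs and 12.08, 12.08 and 12.04 in control lungs. The groups did not overlap there either, but the difference of 0.14 (SE 0.051) did not pass, with a limma adjusted p of 0.0563. It passed under the trended robust prior.

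The largest difference at the bright end belonged to Rpl36, a large-subunit protein. Its probe set 1416519_PM_at read 11.46, 11.53 and 11.51 in hydrogen lungs and 11.07, 11.05 and 11.09 in control lungs. Every hydrogen lung was above every control lung, by 0.43 on average (SE 0.052, limma adjusted p = 0.000631). The other Rpl36 probe set, 1416520_PM_x_at, read 10.23, 10.32 and 10.40 in hydrogen lungs and 10.26, 10.37 and 10.34 in control lungs, where the groups overlapped and the difference was −0.01. The suffix x_at marks probes that can also bind other transcripts, so the 2 readings need not cover the same RNA.

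Rps12, a small-subunit protein, was the only gene with several top-decile probe sets of which every one was called. Probe set 1416453_PM_x_at read 10.98, 11.01 and 11.07 in hydrogen lungs and 10.76, 10.68 and 10.70 in control lungs. Its second probe set, 1448344_PM_at, read 10.15, 10.14 and 10.15 in hydrogen lungs and 9.92, 9.95 and 9.85 in control lungs. Both rose without overlap, by 0.31 (SE 0.055, limma adjusted p = 0.0029) and 0.24 (SE 0.053, limma adjusted p = 0.00732), and the second narrowly missed the threshold, at 0.0502, when arrays were centred on their medians.

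Rpl37, a large-subunit protein, was read by 4 probe sets that did not move together. Probe set 1434872_PM_x_at read 11.29, 11.40 and 11.32 in hydrogen lungs and 11.07, 11.02 and 11.03 in control lungs, a rise of 0.30 (SE 0.055, limma adjusted p = 0.00341). The dim 1450838_PM_x_at rose by 0.28. The brightest one, 1453729_PM_a_at, differed by 0.07, and 1438291_PM_x_at by 0.00, and neither of these passed.

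The 5 top-decile probe sets that fell came from Rps21, Rpl23a, Rps15, Rpl37a and Rps27l. Rps21, a small-subunit protein whose start window is shown above, had 11.62, 11.62 and 11.72 in hydrogen lungs and 11.87, 11.93 and 11.94 in control lungs for 1430288_PM_x_at. The groups were apart and the difference was −0.26 (SE 0.056, limma adjusted p = 0.00657). Its other 3 probe sets, all in the top decile, gave −0.05, 0.03 and 0.07, each within the bound.

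Rpl23a, a large-subunit protein at the mouth of the exit tunnel, had 11.58, 11.54 and 11.61 in hydrogen lungs and 11.80, 11.85 and 11.80 in control lungs for 1437975_PM_a_at, a fall of 0.24 (SE 0.052, limma adjusted p = 0.00679). The other 3 Rpl23a probe sets gave −0.07, −0.07 and −0.11 and did not pass. Rpl37a, a large-subunit protein, fell by 0.19 in 1460543_PM_x_at, with a limma adjusted p of 0.0172 that became 0.0596 without hydrogen replicate 2. Its other bright probe set, 1416217_PM_a_at, differed by −0.06 within the bound, and its dim probe set did not pass. Rps15, a small-subunit protein, fell by 0.22 in 1416088_PM_a_at (limma adjusted p = 0.0309) but differed by 0.03 in its second probe set. The Rps15 call was lost when control replicate 1 or 2 or hydrogen replicate 1 or 2 was left out, with adjusted p up to 0.0944, and after quantile normalization or cyclic loess, with adjusted p up to 0.126.

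**Figure D3:**
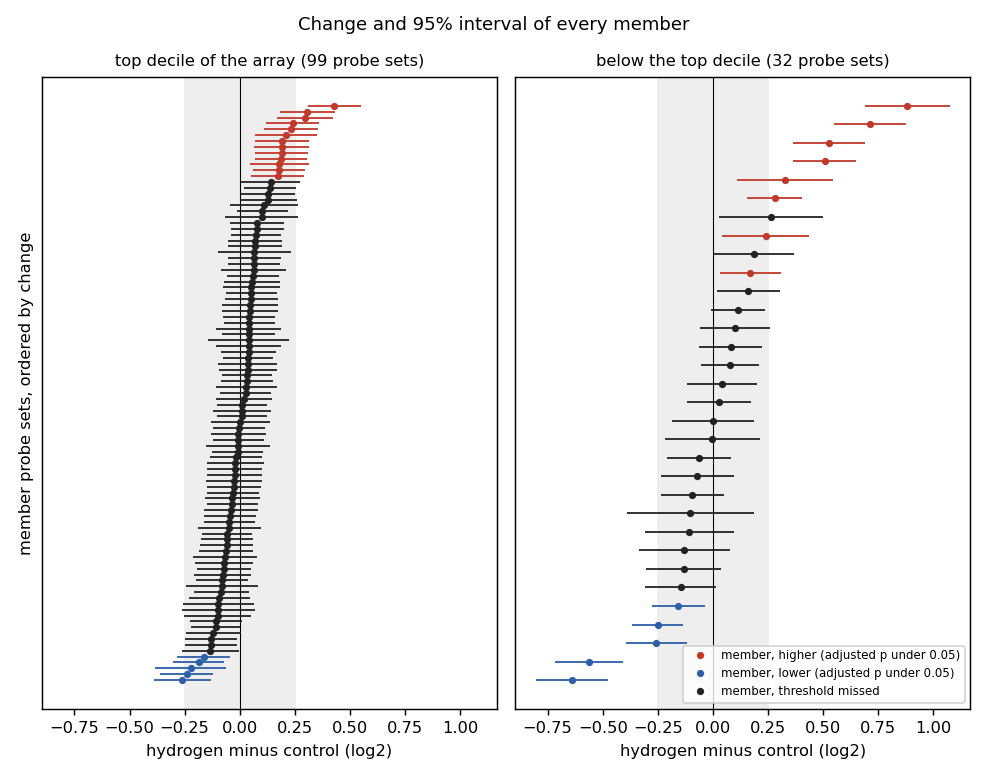
Hydrogen minus control difference in log2 with its 95% limma interval for every ribosomal protein probe set, ordered by difference, with the top decile on the left, the 32 dimmer ones on the right and the band from −0.25 to 0.25 shaded. The intervals of 71 of the 99 on the left lie inside the band, and the outermost differences there are 0.43 for Rpl36 and −0.26 for Rps21.

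The 3 stalk proteins, which bind the elongation factors on the large subunit, did not move as a block. Rplp0, the stalk's base, had 11.14, 11.10 and 11.13 in hydrogen lungs and 10.94, 10.85 and 10.88 in control lungs. It rose by 0.23 without overlap (SE 0.053, limma adjusted p = 0.00814), and centring on the array medians took the adjusted p to 0.0538. Rplp1 differed by −0.06 (SE 0.054) and Rplp2 by 0.10 (SE 0.051), both within the bound. Their values were 11.93, 11.94 and 11.98 in hydrogen lungs against 11.99, 11.98 and 12.07 in control lungs for Rplp1, and 11.96, 11.95 and 11.97 in hydrogen lungs against 11.87, 11.88 and 11.82 in control lungs for Rplp2.

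The other common loading references differed from one another. Rps18 had 11.74, 11.72 and 11.76 in hydrogen lungs and 11.56, 11.53 and 11.60 in control lungs, a rise of 0.18 (SE 0.052, limma adjusted p = 0.0229) that was lost when any array other than control replicate 3 was left out, with adjusted p up to 0.0679, and after centring, at 0.201. Rpl13a had 11.08, 11.07 and 11.14 in hydrogen lungs and 11.11, 11.00 and 11.02 in control lungs. Its groups overlapped and its interval, around 0.05, stayed within the bound.

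Rps19, Rps14, Rpl11 and Rpl23, preset genes known from blood disorders or from p53 control, were level in their bright probe sets. The p53-responsive Rps27l, described further on, had a top-decile probe set called lower. Rps19 and Rps14, which are affected in human inherited and acquired anaemias, differed by −0.04 and −0.03, both within the bound. Rpl11, which binds the p53 inhibitor Mdm2 when ribosome assembly fails, had 10.99, 11.02 and 11.07 in hydrogen lungs and 11.08, 11.01 and 10.96 in control lungs, a difference of 0.01 (SE 0.057). Rpl23, another Mdm2 partner, gave 0.04 and −0.03 in its 2 bright probe sets.

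Dim probe sets of the same genes read otherwise. Of the 32 ribosomal protein probe sets below the top decile, 8 were higher and 5 were lower, or 40.6%, close to the 47.2% of all probe sets below it. Their replicate spread was wider, with a median SD of 0.076 in hydrogen and 0.078 in control lungs, against 0.035 in each group for the bright ones. In 16 of 18 genes with both kinds, the dimmest probe set differed more than the brightest. The median size of difference in these 18 genes was 0.21 for the dimmest and 0.04 for the brightest probe set. Over all probe sets the median difference varied with signal, at 0.15 in deciles 4 and 5 and −0.18 and −0.23 in deciles 8 and 9. The called dim probe sets of Rpl9, Rpl11 and Rps10 rose in deciles 4 and 5, and those of Rpl7l1 and Rps6 1416142_PM_at fell in deciles 8 and 9. Rps24 had a rise in decile 4 and a fall in decile 8. Against these medians, dim probe sets of Rpl24, Rpl37 and Rpl22 rose in deciles 8 and 9. Which transcripts the dim probe sets bind was not tested.

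Rps24, a small-subunit protein with alternatively spliced ends, had dim probe sets called in both directions. Probe set 1436500_PM_at read 4.73, 4.66 and 4.51 in hydrogen lungs and 3.92, 3.85 and 3.99 in control lungs, a rise of 0.71 (SE 0.072, limma adjusted p = 0.000366). Probe set 1455195_PM_at read 6.20, 6.04 and 6.18 in hydrogen lungs and 6.89, 6.69 and 6.76 in control lungs, a fall of 0.64 (SE 0.072, limma adjusted p = 0.000513). Neither pair of groups overlapped. The 3 bright Rps24 probe sets, at means of 11.34 to 12.05, differed by 0.04, −0.03 and −0.12, all within the bound.

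Rps6 showed the same split on a smaller scale, with 1416142_PM_at lower by 0.26 (limma adjusted p = 0.00975) and 1453466_PM_at higher by 0.24 (limma adjusted p = 0.0495). The call of the higher one was lost when any array other than hydrogen replicate 1 was left out, and the lower one was lost after quantile normalization or cyclic loess, where its adjusted p reached 0.227.

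The largest rise of all was in a dim Rpl9 probe set, 1436798_PM_at, with 5.28, 5.17 and 5.12 in hydrogen lungs and 4.16, 4.30 and 4.46 in control lungs. It rose by 0.88 (SE 0.084, limma adjusted p = 0.000311), against 0.19 for the bright Rpl9 probe set. A dim Rpl11 probe set, 1448773_PM_at, had 4.71, 4.75 and 4.60 in hydrogen lungs and 4.06, 4.27 and 4.15 in control lungs, and rose by 0.53. A dim Rpl24 probe set, 1447653_PM_x_at, had 6.30, 6.36 and 6.43 in hydrogen lungs and 5.94, 5.83 and 5.80 in control lungs, and rose by 0.51, while the bright Rpl24 probe set differed by −0.06.

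On the falling side, a dim Rpl23 probe set, 1422859_PM_a_at, had 5.29, 5.13 and 5.32 in hydrogen lungs and 5.87, 5.79 and 5.77 in control lungs. It fell by 0.56 (SE 0.067, limma adjusted p = 0.000607) without overlap, while both bright Rpl23 probe sets were within the bound. A dim Rps10 probe set rose by 0.33, with a limma adjusted p of 0.0225 that reached 0.0654 without hydrogen replicate 1 or 2, and 0.155 under another scaling. A dim Rps20 probe set near the array floor, at a mean of 3.11, fell by 0.16, a call lost when any array other than control replicate 3 was left out.

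**Figure D4:**
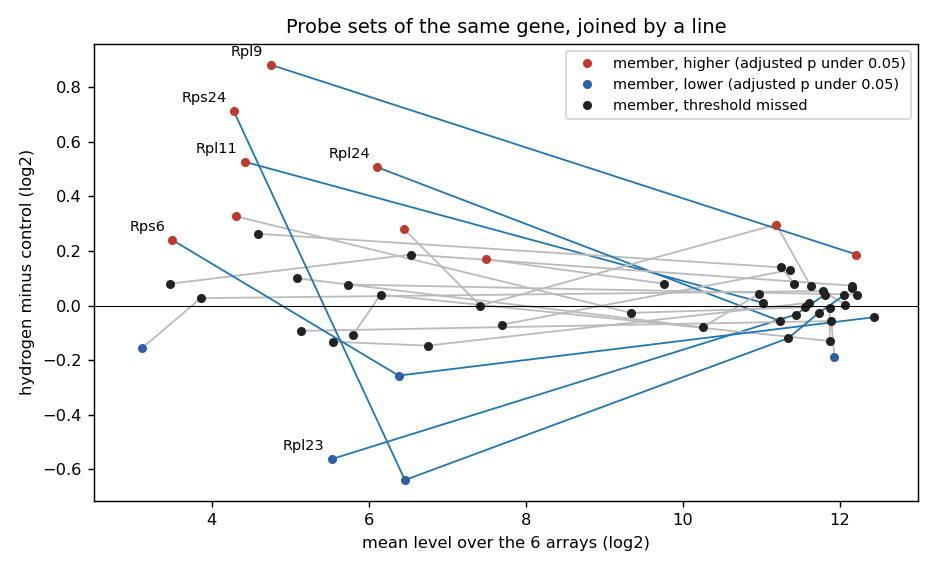
Mean log2 signal (horizontal axis) against the hydrogen minus control difference in log2 (vertical axis) for the probe sets of the 18 genes that have both top-decile and dimmer ones, with probe sets of 1 gene joined by a line and 6 genes named and drawn with blue lines. The lines fan out to the left: bright ends lie between −0.19 and 0.30, while the dim ends reach 0.88 for Rpl9 and −0.64 for Rps24.

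Disagreement within a gene was common. Among the 24 genes with several top-decile probe sets, 12 had none called, 11 had some called and some not, 1 had all called in 1 direction, and 0 had bright probe sets called in both directions. The median range of the differences within these genes was 0.13, and the widest was 0.44, in Rpl36. Taking only the brightest probe set of each of the 69 genes, 7 were higher, 3 were lower and 50 were level within the bound, against 25.5% higher and 25.9% lower among all 17097 genes read in the same way.

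**Figure D5:**
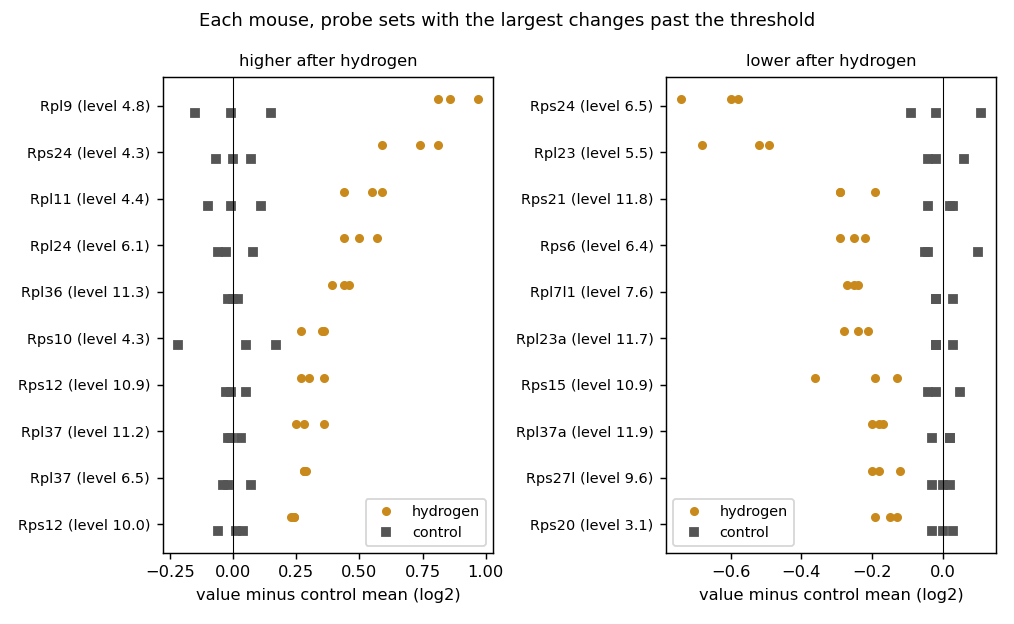
Log2 signal minus the control mean in each mouse for the 10 largest called rises (left) and the 10 largest called falls (right), with circles for the 3 hydrogen mice, squares for the 3 control mice and the mean signal beside each gene. The probe sets were picked among those without overlap between the groups, so circles and squares are apart by selection. The mean rise is largest in a dim Rpl9 probe set, at 0.88, and the mean fall in a dim Rps24 probe set, at 0.64.

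Some ribosomal proteins have near-copies with narrower use. Rpl3l, a striated-muscle copy of Rpl3, had 3.72, 3.62 and 3.66 in hydrogen lungs and 3.44, 3.48 and 3.60 in control lungs. Its difference of 0.16 did not pass (limma adjusted p = 0.0643), and its values lay below the array median in all 6 lungs. Rpl39l, a testis-enriched copy of Rpl39, was also below that median, with a difference of −0.06. Rpl22l1, the copy of Rpl22, had 10.10, 10.31 and 10.31 in hydrogen lungs and 10.34, 10.30 and 10.37 in control lungs, with overlap and a difference of −0.10.

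Rps27l, a p53-responsive copy of Rps27, was lower in 1 of its 3 probe sets, by 0.16 (limma adjusted p = 0.0334), a call lost when any of the 6 arrays was left out. Rpl7l1, a relative of Rpl7, was lower by 0.25 in its brightest probe set, with 7.52, 7.49 and 7.51 in hydrogen lungs and 7.74, 7.74 and 7.79 in control lungs (limma adjusted p = 0.00504). Quantile normalization and cyclic loess removed that call, with adjusted p up to 0.715. The core members Rpl3, Rpl7 and Rpl26 were within the bound in every probe set, and Rpl22 rose by 0.17 in a dim probe set with a limma adjusted p of 0.0468 that reached 0.154 without hydrogen replicate 2. After quantile normalization Rpl22 1448398_PM_s_at was higher by 0.40 (limma adjusted p = 0.0026), and the bright Rpl22 1416603_PM_at, at 0.08 without passing in the deposited scale, was higher by 0.19 (limma adjusted p = 0.0276).

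In the large subunit, 13 of 83 probe sets from 45 genes were higher and 4 were lower, or 20.5%, with a median of 0.03. In the small subunit, 8 of 48 from 24 genes were higher and 6 were lower, or 29.2%, with a median of 0.01. The whole array had 47.1% called. In the top decile the shares were 16.7% for the large and 20.5% for the small subunit, against 46.2% of that decile. Probe sets whose names mark possible sharing, ending in x_at or s_at, gave 7 higher and 2 lower of 51, or 17.6%. The others gave 14 higher and 8 lower of 80, or 27.5%, both under the share of the whole array. No difference between these classes was tested.

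Other large complexes were read on the same arrays. Of 129 probe sets for mitochondrial ribosomal proteins, which serve the separate ribosomes of mitochondria, 13 were higher and 57 were lower, or 54.3%, with a median of −0.15. Of 58 proteasome probe sets, 6 were higher and 24 were lower, or 51.7%, with a median of −0.14. Both shares were near the 47.1% of the whole array, but the directions were split otherwise. The array had 24.3% higher and 22.8% lower, while most calls in both groups were lower. In the top decile, 12 of 17 mitochondrial and 17 of 31 proteasome probe sets were lower and the rest did not pass, against 40.9% lower among all probe sets of that decile. The difference between gene groups was not tested, and both groups were dimmer, with a highest mean of 9.20 for mitochondrial ribosomal proteins and 10.10 for the proteasome.

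Genes that act with the ribosome were read by 1 probe set each, the brightest. Of the ribosomal proteins outside the naming rule, Rpsa differed by 0.07 and Fau by −0.10, and none of the 3 measured passed or had an unadjusted limma p under 0.05. Centring on the array medians moved Fau 1417452_PM_a_at to −0.19 with a limma adjusted p of 0.0147, and the trended robust prior also called it. Of 11 elongation and termination genes, 3 were lower and the other 8 did not pass, against 25.5% higher and 25.9% lower among all genes. The abundant factors Eef1a1 and Eef2, which deliver transfer RNA and move the ribosome, differed by 0.09 and 0.08 without passing, though Eef1a1 passed under the trended robust prior. The termination factor gene Gspt1 fell by 0.39 (limma adjusted p = 0.00577) and Eef1e1, a scaffold of transfer RNA synthetases, by 0.34 (limma adjusted p = 0.0301). Both calls were lost after quantile normalization or cyclic loess.

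Of 29 initiation genes, 2 were higher and 7 were lower, with a median of −0.07, against 25.5% higher and 25.9% lower among all genes. Eif3m, a subunit of the factor that recruits the small subunit, fell by 0.33, and Eif1ax, which helps scan for the start codon, by 0.41. Both calls were lost after quantile normalization or cyclic loess. The exchange-factor genes Eif2b2 and Eif2b5 rose by 0.27 and 0.18, and array-median centring and several of the fits without 1 array removed both calls. Eif2b5 averaged 4.16, below the median probe set, in a decile where the median difference of all probe sets was 0.15.

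Of 19 regulators of ribosomal protein synthesis, 4 were higher and 9 were lower, with a median of −0.16, against 25.5% higher and 25.9% lower among all genes. Mtor, the kinase at the head of the pathway, had 7.18, 6.91 and 7.15 in hydrogen lungs and 7.33, 7.50 and 7.46 in control lungs, a fall of 0.35 (SE 0.084, limma adjusted p = 0.0103) that was lost after quantile normalization, cyclic loess or averaging the gene's probe sets. Mlst8, its partner in both mTOR complexes, rose by 0.56 (limma adjusted p = 0.000887). Mycn, of the Myc family that drives ribosomal genes, rose by 0.51 at a low level, and Myc differed by −0.13 without passing. Larp1b, a relative of Larp1, fell by 0.70, and Eif2ak2, the double-stranded RNA kinase, by 0.69. Larp1 itself fell by 0.16 and the translation repressor gene Eif4ebp1 by 0.21, but the sign of Larp1 turned under quantile normalization and cyclic loess and that of Eif4ebp1 under quantile normalization and with the mean per gene. The Larp1 call was also lost when any of the 6 arrays was left out.

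Of 58 ribosome assembly genes, 11 were higher and 18 were lower, with a median of −0.07, a called share close to the 51.4% of all genes. Bop1 and Rrp9, which act in the processing of ribosomal RNA, rose by 0.49 and 0.57. Nop10, of the pseudouridylation particles, had 9.31, 9.34 and 9.31 in hydrogen lungs and 9.81, 9.82 and 9.85 in control lungs and fell by 0.51 (limma adjusted p = 0.000353). Sbds, which helps release a factor that keeps the subunits apart, fell by 0.49.

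Markers of other cells were read by 1 probe set each, where 51.4% of all genes were called. All 11 cardiac muscle genes measured were lower in hydrogen lungs, with a median of −1.93 and a mean level of 5.85 to 7.82 in hydrogen lungs and 8.86 to 9.17 in control lungs. None of the 11 averaged below the median probe set. Of 7 T cell genes 4 were higher and 3 did not pass, with a mean level of 5.44 to 5.54 in hydrogen lungs and 5.10 to 5.34 in control lungs, and 1 was below the median probe set. Of 7 B cell genes 5 were higher and 2 did not pass, at 5.74 to 5.90 in hydrogen lungs and 5.44 to 5.55 in control lungs, and 3 were below the median. Of 11 lung genes 5 were lower and 6 did not pass, at 9.63 to 9.72 in hydrogen lungs and 9.77 to 9.79 in control lungs. Of 10 skeletal muscle genes 4 were higher and 2 lower, with 8 below the median, and of 5 red cell genes 1 was lower. The part of these cells in the ribosomal protein values was not tested.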

How the data were processed

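Total RNA from 6 whole lungs was hybridised to mouse MG-430 PM array strips, 1 array per mouse. The deposited log2 values were made by the authors with RMA in Affymetrix Expression Console, per the submitters' processing notes, and are given to 2 decimals. The deposited array medians differ, and scanner files were not used. Control probe sets (104) were left out, and 28898 probe sets have 1 gene symbol and 551 have several. All 45037 probe sets were fitted in limma 3.58.1 (R 4.3.3) with lmFit and eBayes, hydrogen minus control, with Benjamini-Hochberg adjustment and a threshold of 0.05. A probe set was called level where its 95% interval lay within 0.25 of 0. The fit was tested on simulated data without the group differences in array median and SD, so that test does not cover them. The alternatives were other scalings, limma settings and probe set choices, and leaving out each array.

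The members and the gene lists were chosen with earlier results of these data known. The text names the 10 brightest genes, preset genes and paralogs. It also names the 10 largest called changes in each direction among probe sets whose groups did not overlap. Of the other lists, it names the 2 genes with the smallest p in each direction beside preset ones. Some muscle, blood and lung markers of that rule are given only as counts. Arrays give no read depth, and the 3 arrays per group limit the precision. Figures were drawn with matplotlib 3.10.9. Same-numbered replicates did not vary together.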

Additional observations from a re-analysis of the deposited data

How the results depend on the processing

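Over all ribosomal protein probe sets, the main counts were 21 higher, 10 lower and 81 level, with a median of 0.03. In the top decile they were 13 higher and 5 lower. Centred on the array medians, 8 were higher, 29 were lower and the median was −0.063, with 3 and 21 in the top decile. Quantile normalization gave 24 higher and 6 lower (17 and 3 in the top decile). Cyclic loess gave 26 higher and 7 lower (19 and 3 in the top decile), with a median of 0.05 over all ribosomal protein probe sets. A trended robust prior gave 27 higher and 16 lower (18 and 11 in the top decile), or 32.8% called against 49.5% of the array. Without probe sets that may be shared, 14 of 80 were higher and 8 lower, or 27.5% against 47.4% of all probe sets in that fit. Of these 80, 43 were level, and 9 in the top decile were higher and 3 lower. With 1 probe set per gene, 7 were higher, 3 lower and 50 level, and 7 and 2 in the top decile. That is 14.5% called, against 52.5% of all genes in that fit. With the mean per gene, 14 of 69 were higher, 12 of them in the top decile, and 1 was lower, also in the top decile. That is 21.7% called, against 52.3% of all genes in that fit, and 53 were level. Fewer values are tested in these last 3 settings. The cause of the changed counts was not tested in any setting. With the replicate block, 18 were higher and 7 lower, or 19.1% against 43.9% of the array, with 12 higher and 3 lower in the top decile. The correlations of same-numbered arrays were 0.078, 0.029 and −0.109, so the numbers were not taken as pairs. Leaving out 1 array at a time gave 11 to 18 higher, 6 to 9 lower, 69 to 75 level, a median of 0.005 to 0.037, and 6 to 10 higher and 2 to 4 lower in the top decile. Of the 31 calls, 16 were kept without any 1 array, and 12, of which 5 were in the top decile, were kept under all 13 settings on the full table, the main one included. Of 1442 comparisons of single named values with an alternative, 50 turned in sign, and 7 of these were called in at least 1 of the 2 fits. With the sign kept, 125 lost their call and 21 gained one. Of those 7, with the mean per gene, Rps24 1436500_PM_at became −0.007, Rpl23 1415701_PM_x_at −0.186, Rps6 1453466_PM_at −0.020 and Eif4ebp1 0.037. Under quantile normalization Eif4ebp1 became 0.008 and Larp1 0.066, and under cyclic loess Larp1 became 0.039.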

Other observations

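The array carries control probe sets for the small subunit's own RNA, 18S rRNA, which were left out of the fit used in the report and were tested in a second limma fit over every row of the table. The one for its 3′ end read 10.49, 10.24 and 11.02 in hydrogen lungs and 11.38, 11.32 and 11.91 in control lungs, a difference of −0.95 (SE 0.21, limma adjusted p = 0.00709). The one for its middle differed by −0.83 (limma adjusted p = 0.00583) and the one for its 5′ end by −0.48 (limma adjusted p = 0.0319). The groups did not overlap for the 3′ and middle ones and overlapped for the 5′ one, while the bright ribosomal protein messengers were mostly level. How much ribosomal RNA is copied into the labelled target depends on the labelling reaction, which was not tested.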
